A study of Mus musculus with 16 samples.

Results

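The Ikaros family is a group of 5 genes that encode zinc-finger transcription factors, and all 5 were read here from RNA sequencing of CD4-CD8-CD25+CD44- (DN3) thymocytes: *Ikzf1* (Ikaros), *Ikzf2* (Helios), *Ikzf3* (Aiolos), *Ikzf4* (Eos) and *Ikzf5* (Pegasus). They were taken by gene symbol from 2 tables of read counts, each with 22114 genes, and all 5 members were present in both tables and passed the filter on low counts in every comparison. The first experiment compared cells with strong (GFPhi, 3 libraries) and weak (GFPlo, 3 libraries) retention of an H2B-GFP label in mice that all carried the *CD2-Lmo2* transgene (H2B-GFP;Lmo2Tg), in which doxycycline had switched on the label for 6 weeks and had then been withdrawn for 2 weeks, so that cells dividing less often kept more GFP. The second compared DN3 cells of wild-type mice (3 libraries), p21-/- mice (2), Lmo2Tg mice (2) and Lmo2Tg;p21-/- mice (2), p21 being the cell-cycle inhibitor encoded by *Cdkn1a*. In Lmo2Tg mice the CD2 promoter drives the oncogene *Lmo2* in the T lineage, and DN3 cells then hold the pre-leukemic stem cells (pre-LSCs) that precede T-cell leukemia. The labels give the strain as C57BL/6 and the methods as C57BL/6J. The genotype mice were 6 weeks old and the GFP mice 2 months old. Sequenced samples were pools of mice, those of the GFP experiment from 3 independent cohorts. The methods give pools of 3 to 5 mice for global expression, in a paragraph that describes an array. Whether this holds for each library is not stated, so the spread between libraries may be partly technical.

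Ikaros proteins bind DNA through an N-terminal group of C2H2 zinc fingers and pair with one another through a C-terminal group, so members can act together or compete at the same sites. Ikaros is needed for lymphoid development and restrains Notch target genes in thymocytes, and its loss is a frequent event in mouse T-cell leukemia. Much of its action runs through chromatin complexes, in particular the nucleosome remodelling and deacetylase complex (NuRD). Helios is best known in T-cell progenitors and regulatory T cells, Aiolos in B cells and later T cells, Eos in regulatory T cells, and Pegasus is the most distant relative, expressed in many tissues.

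How alike the members are at the base level is shown by a pair of neighbouring DNA-binding fingers of each. The stretches below are from GENCODE M21 coding sequences (GRCm38), read 5′ to 3′ on the coding strand, with the codons of the zinc-binding cysteines and histidines in capitals. They are shown because the fingers are a conserved part of the family and a place where reads of one member could be taken for another. The pair was chosen for likeness, as the neighbouring fingers of *Ikzf1* with the highest mean identity to the best-matching pairs of the other members. The identities given below are therefore high by choice, and identity outside the fingers was not measured.
Ikzf1: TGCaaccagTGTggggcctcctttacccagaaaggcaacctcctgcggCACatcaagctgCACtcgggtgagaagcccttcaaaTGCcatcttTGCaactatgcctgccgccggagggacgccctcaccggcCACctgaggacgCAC
Ikzf2: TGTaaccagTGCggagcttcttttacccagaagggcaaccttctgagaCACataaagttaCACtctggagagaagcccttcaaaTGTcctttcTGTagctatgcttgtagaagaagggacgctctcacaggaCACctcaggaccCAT
Ikzf3: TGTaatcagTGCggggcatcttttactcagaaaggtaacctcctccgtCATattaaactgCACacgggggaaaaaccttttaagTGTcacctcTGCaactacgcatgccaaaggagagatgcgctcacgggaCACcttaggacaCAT
Ikzf4: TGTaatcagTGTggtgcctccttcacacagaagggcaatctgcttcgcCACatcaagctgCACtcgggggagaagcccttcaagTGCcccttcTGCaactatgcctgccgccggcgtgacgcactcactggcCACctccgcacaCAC
Ikzf5: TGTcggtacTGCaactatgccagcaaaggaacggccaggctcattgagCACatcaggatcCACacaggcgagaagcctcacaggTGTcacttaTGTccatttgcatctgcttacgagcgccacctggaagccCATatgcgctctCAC

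Each stretch holds 147 bases and covers fingers 2 and 3 of *Ikzf1* to *Ikzf4* and fingers 1 and 2 of *Ikzf5*. Against *Ikzf1*, 83.7% of the bases were identical in *Ikzf4*, 78.2% in *Ikzf2*, 76.2% in *Ikzf3* and 47.6% in *Ikzf5*. Even so, the longest run of identical bases that any pair of members shared over their whole coding sequences was 26 bases, between *Ikzf1* and *Ikzf3*, and the shortest such maximum was 11 bases, between *Ikzf2* and *Ikzf5*. Fingers were counted and numbered by a codon pattern searched in frame. It held cysteine codons with 2 or 4 codons between them, 12 codons, then histidine codons with 3 to 5 codons between them. *Ikzf1* and *Ikzf2* had 6 matches and the other 3 members 5 each, while 3.56% of 21523 mouse coding sequences had 1 or more. A finger that departs from the pattern is missed, so these are counts of matches and not a shown difference in finger number between members.

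The 5 genes lie apart, on 4 chromosomes. In GRCm38 coordinates *Ikzf1* lies at chr11:11685003-11772926 on the plus strand, and the others are on the minus strand: *Ikzf2* at chr1:69531214-69687245, *Ikzf3* at chr11:98464902-98546031, *Ikzf4* at chr10:128630843-128645991 and *Ikzf5* at chr7:131388652-131410521. The printed fingers lie within a single coding exon of *Ikzf1* (exon 6 of 9, chr11:11754024-11754170), *Ikzf2* (exon 5 of 8, chr1:69570497-69570643), *Ikzf3* (exon 5 of 8, chr11:98488856-98489002) and *Ikzf4* (exon 5 of 9, chr10:128640145-128640291). Those of *Ikzf5* are split over exons 3 and 4 of 4 (chr7:131392501-131393821). *Ikzf5* also shares 4652 of its 5721 exonic bases with *Pstk*, a gene on the opposite strand that encodes a kinase for selenocysteine transfer RNA, whereas *Ikzf2* shares 144 of 11613 bases and *Ikzf4* 37 of 5995 bases with antisense transcripts.

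Library totals were 26861394 to 31106213 counts in the GFP experiment and 13864936 to 16837667 in the genotypes, and the lowest count of any member in any library was 193, for *Ikzf4*. The targeted gene *Cdkn1a* stood at 36.5 to 49.0 CPM (read counts relative to library sizes scaled by the trimmed mean of M-values) in wild-type libraries against 14.3 and 17.7 in p21-/- libraries, and at 26.3 and 32.8 in Lmo2Tg against 3.502 and 4.354 in Lmo2Tg;p21-/- libraries. *Lmo2* was at 41.4 to 107 CPM in the 4 transgenic genotype libraries and had 1 to 5 counts in each of the 5 libraries without the transgene. *Il2ra*, which encodes the sort marker CD25, was at 1411 CPM or more in every library, and none of the 11 DN3 markers was at 0. Most of these markers were lower with the transgene, however: 8 of the 11 were called lower and 1 higher in Lmo2Tg against wild-type cells (median log2 difference -0.78), and again 8 lower and 1 higher on the p21-/- background (median -0.92). Of all 11840 tested genes, 2002 were called lower and 2327 higher in the former comparison, and 1709 lower and 1930 higher in the latter. One library stood apart: GFPhi replicate 3 had 285 CPM of *Lmo2* against 29.5 to 53.8 in the other 5 GFP libraries and 6.56 CPM of *Cdkn1a* against 29.9 and 35.8 in the other GFPhi libraries. The GFP tests of the members and the GFP counts of list genes are therefore given with and without it.

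*Ikzf1* was the most abundant member of the family in every group. Per exonic kilobase, which allows genes to be compared, its level was 115 ± 2.87 CPM per kb (SD, n = 3) in wild-type, 112 ± 1.39 (n = 2) in p21-/-, 133 ± 11.8 (n = 2) in Lmo2Tg and 119 ± 5.80 (n = 2) in Lmo2Tg;p21-/- cells, and higher than 98.03% of the detected genes in wild-type cells. *Ikzf2* came second, at 14.6 ± 2.66, 14.96 ± 0.654, 29.1 ± 4.55 and 35.4 ± 3.61 CPM per kb in the same order of groups. The other members were well below. In wild-type cells *Ikzf5* was at 8.06 ± 0.583, *Ikzf3* at 4.25 ± 0.556 and *Ikzf4* at 3.47 ± 0.115 CPM per kb (n = 3 each).

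The order *Ikzf1*, *Ikzf2*, *Ikzf5*, *Ikzf3*, *Ikzf4* was the same in all 6 groups by mean CPM per exonic kb. *Ikzf1* and *Ikzf2* did not overlap with each other or with the next gene in any group. Lower in the order, library ranges overlapped between *Ikzf5* and *Ikzf3* in GFPhi and GFPlo cells and between *Ikzf3* and *Ikzf4* in GFPhi and Lmo2Tg;p21-/- cells, so these neighbours were not separated there. Per coding kilobase *Ikzf3* ranked above *Ikzf5* in both GFP groups and below it in the 4 genotypes, and without GFPhi replicate 3 it ranked below *Ikzf5* in GFPhi cells too. The names of the deposited tables imply that strand was used in counting the GFP libraries and not the genotype libraries, and no other source used here states it. Without strand, reads of *Ikzf5* and *Pstk* cannot be told apart where the genes overlap, which touches the place of *Ikzf5* and its values in the genotypes. *Pstk* was at 10.9 to 17.1 CPM in all 15 libraries.

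**Figure D1:**
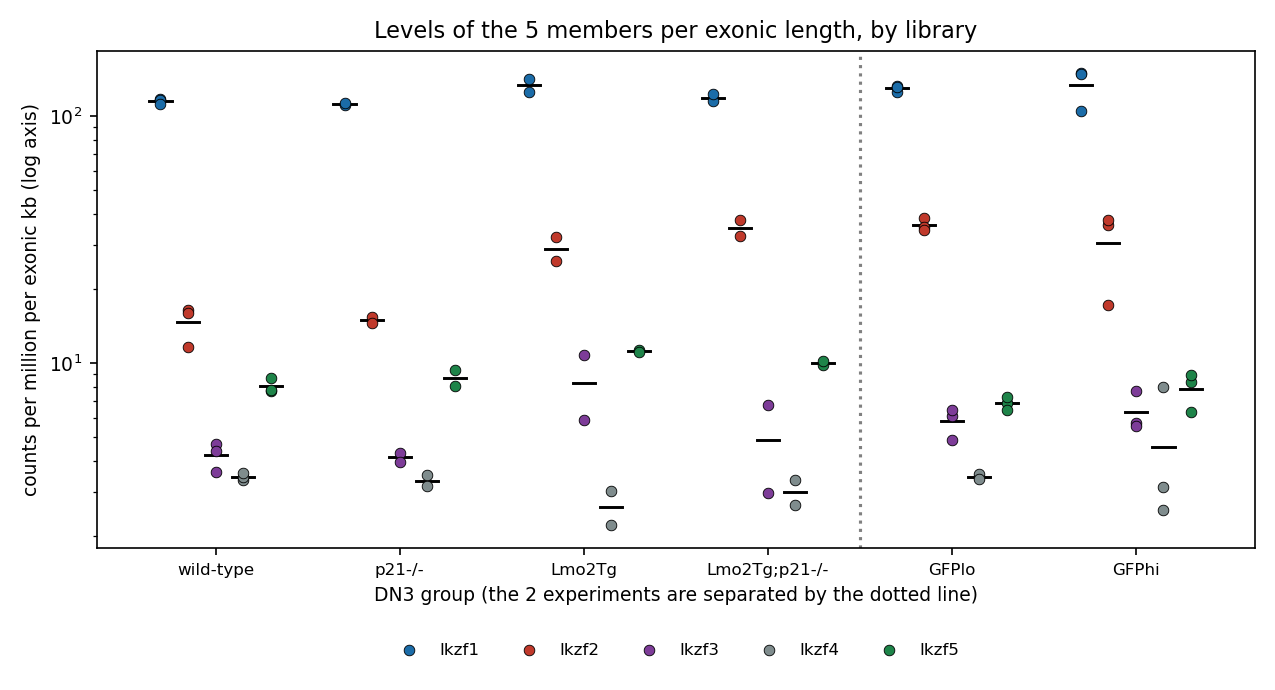
Levels of the 5 members in CPM per exonic kilobase on a log axis, by group; each point is 1 library and each bar a group mean, with the genotypes left and the GFP experiment right of the dotted line. *Ikzf1* lies above 100 in every group, and *Ikzf2* lies between 11.6 and 16.3 without the transgene and between 25.9 and 37.9 in the transgenic genotypes.

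The makeup of the family differed between groups in the shares of *Ikzf2* and *Ikzf1*. Of the summed level of the 5 members per kb, *Ikzf2* took 10.04% ± 1.44 (n = 3) in wild-type and 10.5% ± 0.543 (n = 2) in p21-/- cells, but 15.9% ± 3.33 (n = 2) in Lmo2Tg and 20.6% ± 2.65 (n = 2) in Lmo2Tg;p21-/- cells. The share of *Ikzf1* was 79.1% ± 1.49, 78.2% ± 0.323, 72.2% ± 2.50 and 69.0% ± 1.53 in the same groups. In the GFP experiment, where all cells carry the transgene, *Ikzf2* took 20.0% ± 0.882 in GFPlo and 16.2% ± 3.53 in GFPhi cells (n = 3 each), the GFPhi libraries being at 18.0%, 18.5% and, for replicate 3, 12.1%.

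The question of what the *Lmo2* transgene does to the family was asked with and without p21, and *Ikzf2* was higher with the transgene both times. *Ikzf2*, the Helios gene, stood at 190, 186 and 134 CPM in the wild-type libraries and at 375 and 300.2 CPM in the Lmo2Tg libraries. On the p21-/- background it stood at 179 and 168 CPM without the transgene and at 440.4 and 381 CPM with it. Every transgenic library was above every library without the transgene. The log2 difference was 0.99 (SE 0.15, edgeR quasi-likelihood test, Benjamini-Hochberg adjusted p = 0.000453) in Lmo2Tg against wild-type and 1.24 (SE 0.16, adjusted p = 0.00024) in Lmo2Tg;p21-/- against p21-/- cells. These comparisons share no library, although they come from 1 fit. Of all genes tested, 13.8% had a larger absolute change in the comparison with p21 and 9.49% in that without it. By the stricter rule of a fold over 2 at an adjusted p under 0.05, *Ikzf2* passed on the p21-/- background, where 10.4% of tested genes did, and stayed just under it against wild-type, where 12% did.

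Cell-type markers were read beside these values. The summed level of 4 gamma-delta and innate-like T-cell markers was 178.5 to 261 CPM in the 4 transgenic genotype libraries and 92.4 to 128 CPM in the 5 others. Nearly all of it was *Sox13*, a transcription factor gene of gamma-delta progenitors, at 167 to 256 CPM against 73.0 to 107 CPM. The defining innate-like factor *Zbtb16* was at 1.87 CPM or less, and *Foxp3*, the factor that defines regulatory T cells, at 0.819 CPM or less in every library of either experiment. The regulatory T-cell sum of 4 markers was 11.8 to 18.6 CPM with and 15.2 to 19.0 CPM without the transgene. The DN3 sum of 11 markers was 6311 to 7127 CPM with the transgene against 8949 to 9666 CPM without it. The part of these marker levels in the *Ikzf2* result was not tested, and in bulk RNA a different share of cells and a different amount of RNA per cell cannot be told apart.

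*Ikzf3* and *Ikzf5* were also called higher in Lmo2Tg than in wild-type cells, so that 3 of the 5 members were called, all higher, where 36.6% of all 11840 tested genes were called and 19.7% were called higher. *Ikzf5*, the Pegasus gene, stood at 49.9, 44.0 and 44.3 CPM in wild-type and at 64.3 and 63.2 CPM in Lmo2Tg libraries, with no overlap (log2 difference 0.47, SE 0.09, edgeR adjusted p = 0.00231). *Pstk*, its overlapping neighbour, had a log2 difference of -0.25 (SE 0.14, edgeR adjusted p = 0.195). *Ikzf3*, the Aiolos gene, stood at 41.2, 38.6 and 31.8 CPM in wild-type and at 51.5 and 94.4 CPM in Lmo2Tg libraries. The groups did not overlap, but the 2 Lmo2Tg libraries lay further apart than the lower one lay from wild-type. Its log2 difference was 0.97 (SE 0.30, edgeR adjusted p = 0.026), and without the library at 94.4 CPM it was 0.47 (edgeR adjusted p = 0.303). The call was also lost without wild-type replicate 2 (1.00, edgeR adjusted p = 0.0504) and without wild-type replicate 3 (0.87, edgeR adjusted p = 0.0892), and under DESeq2 (adjusted p = 0.0563).

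*Ikzf1* and *Ikzf4* did not pass the threshold in the same comparison, with opposite signs. *Ikzf1*, the Ikaros gene, stood at 675, 669.7 and 644 CPM in wild-type and at 721 and 817 CPM in Lmo2Tg libraries, again without overlap, and its log2 difference was 0.21 (SE 0.08, 95% interval 0.04 to 0.39, edgeR adjusted p = 0.0535). *Ikzf4*, the Eos gene, stood at 20.2, 20.7 and 21.5 CPM in wild-type and at 18.3 and 13.2 CPM in Lmo2Tg libraries (log2 difference -0.41, SE 0.15, 95% interval -0.75 to -0.06, edgeR adjusted p = 0.0618). Both lay close to the threshold. *Ikzf1* passed with other scaling factors (edgeR adjusted p = 0.0468) or DESeq2 (0.0252), *Ikzf4* passed when no gene was filtered out (edgeR adjusted p = 0.0363), and both passed without the first of the 2 Lmo2Tg libraries (0.30, edgeR adjusted p = 0.0405, and -0.65, edgeR adjusted p = 0.0194).

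**Figure D2:**
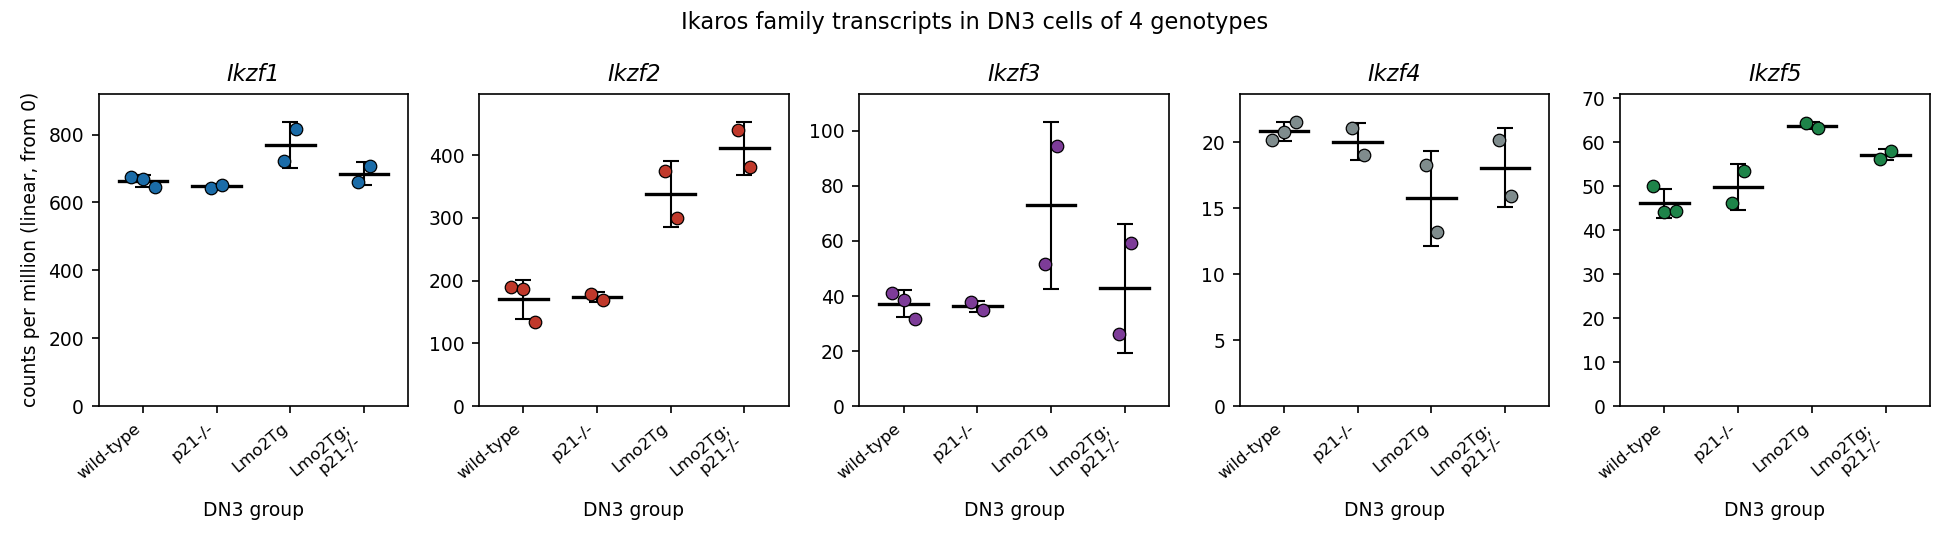
CPM of each member in the DN3 libraries of the 4 genotypes, on linear axes from 0; each point is 1 library, horizontal bars are group means and whiskers 1 SD (n = 3 wild-type, 2 in the other groups). *Ikzf2* stands at 134 to 190 CPM without and 300.2 to 440.4 CPM with the *Lmo2* transgene, and the transgenic *Ikzf3* libraries spread from 26.2 to 94.4 CPM.

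On the p21-/- background *Ikzf2* was the single member called with the transgene, where 30.7% of all tested genes were called and 16.3% were called higher. *Ikzf5* stood at 46.1 and 53.4 CPM in p21-/- and at 56.2 and 58.1 CPM in Lmo2Tg;p21-/- libraries (log2 difference 0.20, 95% interval -0.02 to 0.42, edgeR adjusted p = 0.146). *Ikzf3* stood at 37.7 and 34.9 CPM in p21-/- and at 26.2 and 59.4 CPM in Lmo2Tg;p21-/- libraries (0.24, 95% interval -0.50 to 0.98, edgeR adjusted p = 0.614). *Ikzf1* was at 641 and 653 CPM without and 661 and 709 CPM with the transgene (0.08, 95% interval -0.11 to 0.27, edgeR adjusted p = 0.501). *Ikzf4* was at 21.05 and 19.1 CPM without and 20.2 and 15.9 CPM with it (-0.15, 95% interval -0.52 to 0.21, edgeR adjusted p = 0.514). The 2 *Ikzf3* libraries with the transgene lay on opposite sides of the p21-/- libraries, and the sign of its difference rested on them: without Lmo2Tg;p21-/- replicate 2 it was -0.48.

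**Figure D3:**
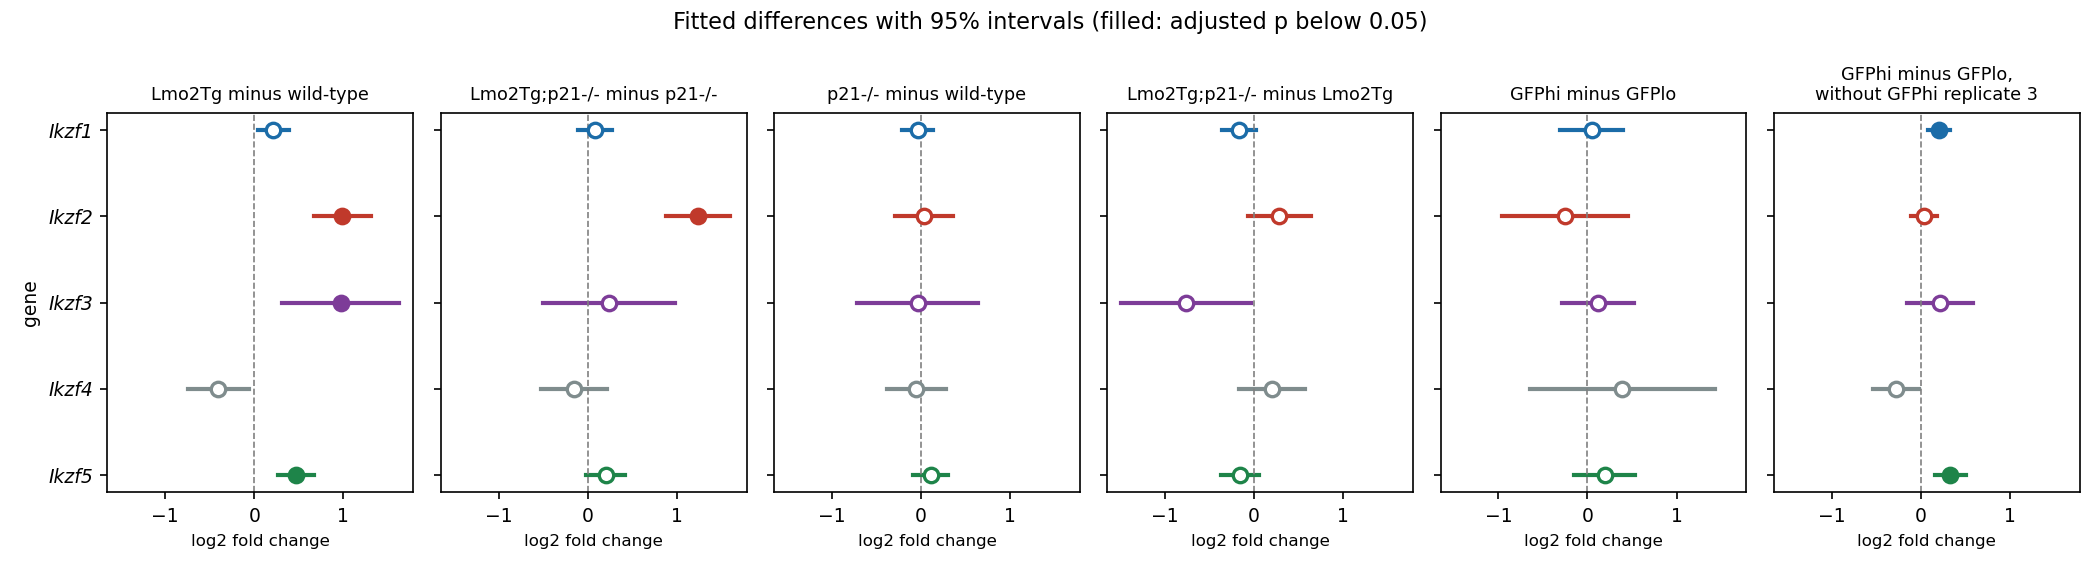
Fitted log2 differences of the 5 members in each comparison, with 95% intervals from the edgeR fit; filled points passed an adjusted p of 0.05. *Ikzf2* is filled in both comparisons of the transgene (0.99 and 1.24), no member is filled in the comparisons of p21 loss, and the intervals of *Ikzf2* and *Ikzf4* narrow when GFPhi replicate 3 is left out.

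Loss of p21 was compared in cells without and with the transgene, and no member was called in either by edgeR, DESeq2 or limma-voom. At an unadjusted edgeR p under 0.05 the count was 0 without and 1 with the transgene, and the share of all genes at that p is not given. The first comparison shares its wild-type libraries, and the second its Lmo2Tg libraries, with the comparison of Lmo2Tg and wild-type cells. Between p21-/- and wild-type cells, 0.11% of all tested genes were called, and the 5 members' log2 differences lay between -0.05 (*Ikzf4*) and 0.11 (*Ikzf5*). The intervals for *Ikzf1* (-0.21 to 0.14) and *Ikzf5* (-0.09 to 0.31) were narrow and that for *Ikzf3* (-0.71 to 0.64) was wide, so a change of the size that *Ikzf3* showed with the transgene is beyond the upper bound but a smaller one was not detectable. Between Lmo2Tg;p21-/- and Lmo2Tg cells 6.94% of all tested genes were called. *Ikzf3* had the largest absolute difference of the 5 members, -0.76 (SE 0.33, unadjusted p = 0.0418, edgeR adjusted p = 0.177), from 51.5 and 94.4 CPM to 26.2 and 59.4 CPM, and these groups overlapped. It reached -1.49 (edgeR adjusted p = 0.0431) without Lmo2Tg;p21-/- replicate 2, the library at 59.4 CPM. *Ikzf2* had a log2 difference of 0.28 (95% interval -0.07 to 0.64, edgeR adjusted p = 0.297). Its lower Lmo2Tg;p21-/- library, at 381 CPM, lay only just above its higher Lmo2Tg library, at 375 CPM.

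Some markers of later thymocytes differed between these groups as well. The summed level of 7 such markers was 254 and 299 CPM in Lmo2Tg, 133 and 148 CPM in Lmo2Tg;p21-/- and 62.7 to 80.3 CPM in the libraries without the transgene, with none of the 7 at 0. Of the 7, 2 were called lower in Lmo2Tg;p21-/- than in Lmo2Tg cells, 1 higher and 4 were not called, where 6.94% of all tested genes were called. Most of the difference in the sum was the activation marker *Cd69*, at 105 to 153 CPM in Lmo2Tg and 17.2 to 19.2 CPM in Lmo2Tg;p21-/- libraries, and *S1pr1*, a receptor used to leave the thymus, was also lower. *Ccr7*, a chemokine receptor gene, was higher, at 1.37 to 1.78 against 3.35 to 4.05 CPM, and *Cd5* was at 62.9 to 65.2 against 69.4 to 70.6 CPM. Within Lmo2Tg the library with more *Ikzf3* also had the higher sum, and the same was seen in Lmo2Tg;p21-/- cells. The sum of 12 B-lineage markers was 34.1 to 39.4 CPM with and 58.4 to 70.3 CPM without the transgene. It consisted mostly of *Cd79b* and *Blk*, the 2 called lower of 7 tested in Lmo2Tg against wild-type cells, where 36.6% of all tested genes were called. The median over the 7 was 0.48, however, and *Pax5*, *Ebf1*, *Ms4a1* and *Cd22* were at 0.858 CPM or less in every genotype library. The part of these marker levels in the *Ikzf3* values was not tested.

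Whether p21 loss acted differently with the transgene was tested as an interaction, which 1.38% of all tested genes passed and no member did by edgeR (also 0 at an unadjusted p under 0.05), DESeq2 or limma-voom. *Ikzf3* had the largest absolute value, -0.73 (SE 0.45, edgeR adjusted p = 0.422), followed by *Ikzf5* at -0.27 (SE 0.13, edgeR adjusted p = 0.322). The intervals of *Ikzf2* (-0.23 to 0.73) and *Ikzf4* (-0.25 to 0.75) included 0 and differences of over 0.7. That *Ikzf3* and *Ikzf5* were called in Lmo2Tg and not in Lmo2Tg;p21-/- cells is therefore no shown difference between the backgrounds.

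The GFP experiment asked how DN3 cells that cycle less differ from those that cycle more. With all 6 libraries no member was called by edgeR, with or without the replicate number as a block (also 0 at an unadjusted p under 0.05), DESeq2 or limma-voom, where 14.9% of 11581 tested genes were called by edgeR, and the log2 differences (GFPhi minus GFPlo) lay between -0.25 (*Ikzf2*) and 0.39 (*Ikzf4*). *Ikzf1* stood at 859.6, 857.6 and 603 CPM in GFPhi and at 765, 724 and 755 CPM in GFPlo libraries. *Ikzf2* stood at 422, 441 and 199 CPM in GFPhi and at 449, 414 and 403 CPM in GFPlo libraries. In GFPhi the first 2 replicates of each gene were close together and the third was the lowest of all 6 libraries.

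*Ikzf5* had the same arrangement, at 47.8, 51.1 and 36.1 CPM in GFPhi and 39.5, 37.0 and 41.8 CPM in GFPlo libraries. *Ikzf4* had the reverse, at 19.0, 15.2 and 47.8 CPM in GFPhi and 20.7, 21.4 and 20.4 CPM in GFPlo libraries. *Ikzf3* stood at 50.2, 67.7 and 48.7 CPM in GFPhi and 42.9, 53.5 and 56.6 CPM in GFPlo libraries. For 4 of the 5 members, all but *Ikzf3*, GFPhi replicate 3 was thus the lowest or the highest library of the 6, on the opposite side of GFPlo from the other GFPhi libraries for *Ikzf1*, *Ikzf4* and *Ikzf5*.

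**Figure D4:**
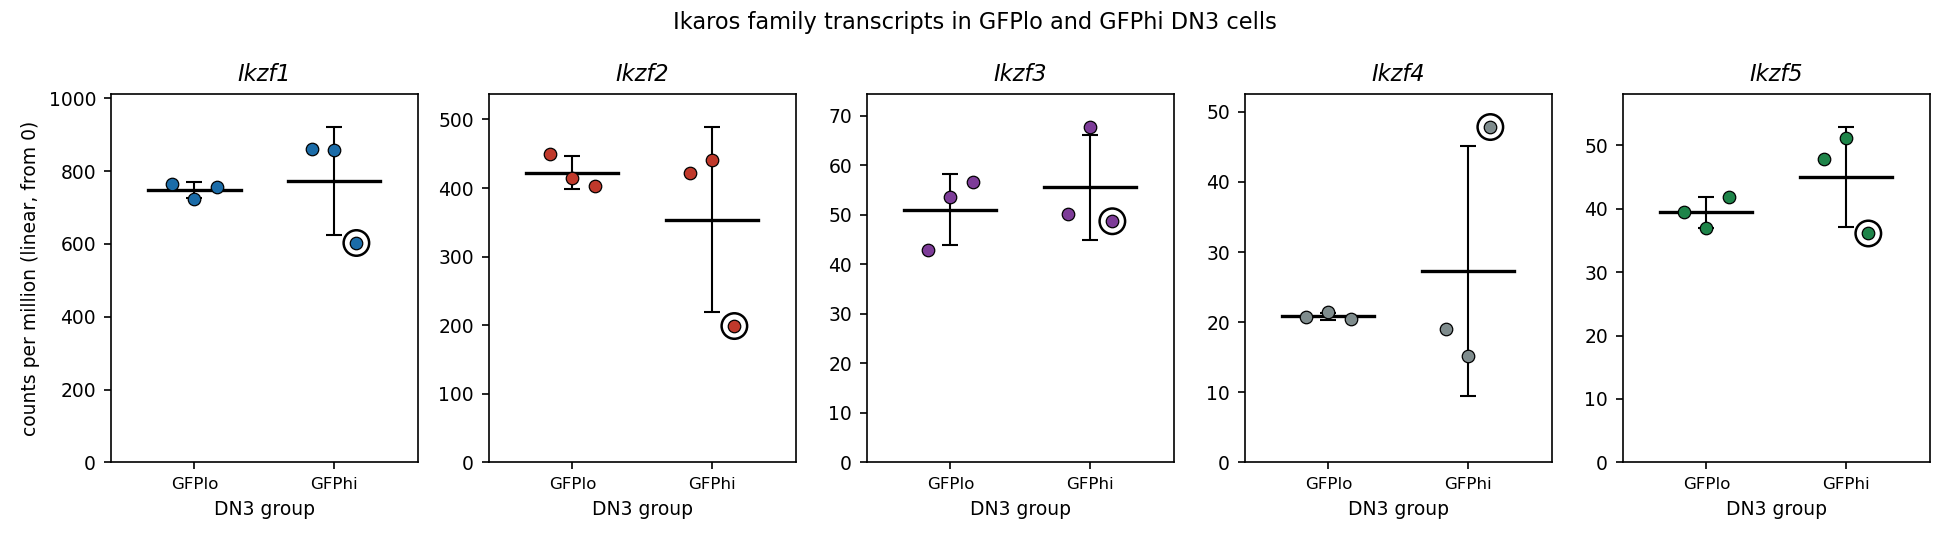
CPM of each member in the 3 GFPlo and 3 GFPhi DN3 libraries, on linear axes from 0; each point is 1 library, bars are means and whiskers 1 SD, and the ringed point is GFPhi replicate 3. The ringed library is the lowest for *Ikzf1* (603 CPM), *Ikzf2* (199 CPM) and *Ikzf5* (36.1 CPM) and the highest for *Ikzf4* (47.8 CPM).

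Without GFPhi replicate 3, 2 of the 5 members were called, both higher, where 41.3% of 11745 tested genes were called and 19.5% were called higher. *Ikzf1* was higher in GFPhi cells by 0.20 on the log2 scale (SE 0.05, edgeR adjusted p = 0.0191) and *Ikzf5* by 0.33 (SE 0.07, edgeR adjusted p = 0.0124). *Ikzf4* had a log2 difference of -0.28 (SE 0.11, edgeR adjusted p = 0.0787), and *Ikzf3* of 0.21 (95% interval -0.16 to 0.59, edgeR adjusted p = 0.311). For *Ikzf2* the difference was 0.04, with a 95% interval of -0.11 to 0.19 (edgeR adjusted p = 0.65). The signs of *Ikzf2* and *Ikzf4* were opposite to those with all 6 libraries. By the rule of a fold over 2 at an adjusted p under 0.01, no member passed with or without this library, where 2.25% and 8.81% of all tested genes did. *Pstk* moved against *Ikzf5*, with a log2 difference of -0.30 (SE 0.09, edgeR adjusted p = 0.042) without GFPhi replicate 3.

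Other markers differed between these sorted cells as well. Of 12 B-lineage markers, 10 were tested with all 6 libraries, 6 were called higher and none lower, and without GFPhi replicate 3 it was 8 and 0 of 11. Of all tested genes, 14.9% were called with all libraries and 41.3% without GFPhi replicate 3. Their summed level was 64.2, 143 and 82.0 CPM in GFPhi and 42.9 to 46.9 CPM in GFPlo libraries. *Pax5*, the factor that defines B cells, was at 1.25 to 5.94 CPM in GFPhi and at 0.0966 CPM or less in GFPlo libraries. The GFPhi library with the highest B-lineage sum, replicate 2, was also the highest for *Ikzf3*, whose product is abundant in B cells. The other GFPhi libraries were in the reverse order. Replicate 3 had a higher sum than replicate 1 (82.0 against 64.2 CPM) but less *Ikzf3* (48.7 against 50.2 CPM). In GFPlo libraries, where the sum was low, *Ikzf3* reached 56.6 CPM. Of 4 natural killer cell markers, *Nkg7*, a granule gene, was at 164 to 194 CPM in GFPhi and 87.8 to 108 CPM in GFPlo libraries, while the defining receptor *Ncr1* was at 0.112 CPM or less, *Klrb1c* at 0.887 CPM or less and *Prf1* at 2.31 CPM or less. The part of these marker levels in the values of *Ikzf1*, *Ikzf3* and *Ikzf5* was not tested.

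The proteins through which Ikaros factors act were read from a list of 18 genes of NuRD and other co-repressors. In Lmo2Tg against wild-type cells 2 of the 18 were called higher, 3 lower and 13 were not called, where 36.6% of all tested genes were called, with a median log2 difference of 0.00 against -0.01 over all genes. *Mta3*, a NuRD subunit that sets which sites the complex occupies, stood at 195 to 198 CPM in wild-type and 380 to 406 CPM in Lmo2Tg libraries (log2 difference 1.00, SE 0.07, edgeR adjusted p = 2.46e-06). *Smarca4*, which encodes the remodelling ATPase Brg1, stood at 949.6 to 1105 CPM in wild-type and 568 to 583 CPM in Lmo2Tg libraries (-0.87, SE 0.09, edgeR adjusted p = 3.96e-05). The other called genes were *Gatad2b* (0.30), *Rbbp7* (-0.43) and *Mbd3* (-0.26), all NuRD subunits. On the p21-/- background, where 30.7% of all tested genes were called, 1 was called higher and 4 lower: *Mta3* (1.16), *Smarca4* (-0.93), *Rbbp7* (-0.53), the deacetylase gene *Hdac2* (-0.37) and the NuRD subunit gene *Mta1* (-0.35). *Chd4*, the main NuRD remodeller, was not among those called in either comparison.

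None of the 18 was called for p21 loss with or without the transgene by edgeR, DESeq2 or limma-voom, where edgeR called 6.94% and 0.11% of all tested genes. At an unadjusted edgeR p under 0.05 the counts were 0 and 2. In the GFP experiment 17 were tested, *Ctbp2* having too few counts, and 1 was called by edgeR, where it called 14.9% of all tested genes. DESeq2 called 3 of the list, and its total over all genes, given below, was also larger than that of edgeR. The gene called by edgeR was *Sin3b*, a co-repressor scaffold, at -0.28 (edgeR adjusted p = 0.0389, and 0.0825 with the replicate block). Without GFPhi replicate 3, where 41.3% of all tested genes were called, 3 were called higher, namely *Mbd2* (0.29), *Chd4* (0.17) and *Mbd3* (0.14), and 2 lower, namely *Sin3b* (-0.25) and *Smarca4* (-0.17). The median over the list was 0.03 against 0.01 over all genes.

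A second list held 20 genes reported to depend on Ikaros proteins in lymphoid progenitors, of which 17 were tested in every comparison, *Igll1*, *Flt3* and *Il2* having too few counts. Of the 20, 7 are also DN3 markers, 2 are later thymocyte markers and 2 B-lineage markers, so the list is not separate from those cell types. In Lmo2Tg against wild-type cells 5 were called higher and 6 lower, and in Lmo2Tg;p21-/- against p21-/- cells 3 higher and 5 lower, of 17 tested each time, where 36.6% and 30.7% of all tested genes were called. The lower genes included *Ptcra*, which encodes the pre-T-cell receptor alpha chain (-1.90 and -2.30 in the respective comparisons), the recombinase gene *Rag2* (-2.33 and -1.46) and the receptor gene *Notch3* (-1.13 and -1.26). The higher genes included *Cd8a*, a co-receptor of later thymocytes (1.96 and 1.43). *Nrarp* (1.30) and *Hes1* (1.21), which encode a regulator and a target of Notch signalling, were also called higher in Lmo2Tg, *Hes1* at 107 and 291 CPM against 74.6 to 101 CPM in wild-type libraries, so that 1 of its Lmo2Tg libraries lay close to wild-type. *Dtx1*, another Notch pathway gene and also a DN3 marker, was called higher in Lmo2Tg (0.90) and on the p21-/- background (1.18).

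Of that list, 3 of 17 tested were called for p21 loss in transgenic cells, where 6.94% of all tested genes were called. They were *Hes1* at 107 to 291 CPM in Lmo2Tg and 67.7 to 67.8 CPM in Lmo2Tg;p21-/- libraries (-1.55, edgeR adjusted p = 0.0264), *Nrarp* (-1.14, edgeR adjusted p = 0.0327) and *Rag2* (1.11, edgeR adjusted p = 0.0147). None was called for p21 loss in cells without the transgene by edgeR, DESeq2 or limma-voom, with 1 at an unadjusted edgeR p under 0.05. In that comparison edgeR called 0.11% of all tested genes. In the GFP experiment with all 6 libraries, edgeR called *Il2ra* alone of the 17 and 14.9% of all tested genes. DESeq2 called 5 of the list, and its total over all genes, given below, was also larger than that of edgeR. *Il2ra* had a log2 difference of 0.68 (edgeR adjusted p = 0.0294, and 0.0502 with the replicate block), at 2287 to 3225 CPM in GFPhi and 1563 to 1761 CPM in GFPlo libraries. Without GFPhi replicate 3, 3 of the 17 were called higher and 4 lower, against 41.3% of all tested genes called, led by *Dtx1* (1.26), the receptor gene *Il7r* (-0.86) and *Il2ra* (0.52), followed by *Dntt* (-0.40), which encodes terminal transferase, *Cd8a* (-0.37) and the cyclin gene *Ccnd3* (-0.37).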

How the data were processed

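RNA was poly(A)-captured. Per the labels' processing notes the authors aligned reads with STAR 2.4.2a to mm10 and counted them per gene with featureCounts; limma is also named, and only the names of the deposited tables bear on strand, implying that it was used for the GFP table and not for the genotype table. The values are the deposited counts, not normalized, in 2 tables treated apart. Of 16 labelled samples, 15 libraries were used: p21-/- replicate 3 had no column, 1 column matched no labelled sample and was left out, and the 2 Lmo2Tg columns could be tied to the group but not to a replicate number.

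Counts were tested with edgeR 4.0.16 (R 4.3.3; filterByExpr with a minimum count of 10 and total of 15, trimmed mean of M-values scaling, quasi-likelihood test, Benjamini-Hochberg over all genes tested), checked on simulated data. The 9 genotype libraries shared 1 fit. Counts of members and list genes at an unadjusted p are given without the share of all tested genes at that p. Genes were called at an adjusted p under 0.05; the second rule (fold over 2) used an adjusted p under 0.01 in the GFP experiment, as in the study, and under 0.05 in the genotypes, where the study also gives 0.01 for Lmo2Tg;p21-/- against Lmo2Tg. All 5 members were named in each comparison, and list genes where called, at most the 6 with the largest change, plus *Dtx1* in Lmo2Tg against wild-type cells. The 3 genes most like each member over the genotype libraries were also named, except 1 that is not reported here. The members and lists were chosen with earlier results of these data known. A symbol with more than 1 identifier was represented by the one with more reads. Lengths and positions came from GENCODE M21 (98.2% of identifiers matched). No pair of libraries of a group differed by as little as counting noise. Alternatives were DESeq2 1.42.0, limma-voom (limma 3.58.1), other scaling factors, no filter, a replicate block, only the groups compared, and each library left out.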

Additional observations from a re-analysis of the deposited data

How the results depend on the processing

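The *Ikzf2* calls with the transgene held under every alternative; without each library in turn the log2 difference ranged from 0.82 to 1.14 in Lmo2Tg against wild-type and from 1.12 to 1.33 on the p21-/- background. The *Ikzf5* call in Lmo2Tg also held throughout. Numbers of genes called depended more on the setting. GFPhi against GFPlo gave 1721 genes, 2912 with DESeq2, 496 with a replicate block and 273 to 4848 without each library in turn, with 0 to 2 members called; leaving out any of the 6 moved the count by over 1.5 times. Without the transgene, p21 loss gave 13 genes, 20 with DESeq2, 21 without a filter and 8 (without p21-/- replicate 2) to 18 without each library. Lmo2Tg;p21-/- against Lmo2Tg gave 822 genes, 404 with only the groups compared and 60 to 514 without each of the 4 libraries, with 0 to 1 members called. Lmo2Tg against wild-type gave 4329 genes and 2815 (without the first Lmo2Tg library) to 3836 without each library, with 2 to 5 members called; on the p21-/- background 3639 genes became 1914 (without Lmo2Tg;p21-/- replicate 1; 2186 without p21-/- replicate 2) to 3179. The interaction gave 163 genes, 458 with DESeq2, 520 without a filter and 0 to 449 without each library; the 0 came without Lmo2Tg;p21-/- replicate 1, wild-type replicate 1 or wild-type replicate 3, where edgeR gave 1367, 1823 and 2346 genes at an unadjusted p under 0.05. Leaving out any library but the second Lmo2Tg library moved the number of called genes by over 1.5 times.

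Signs turned only for members that were not called. For p21 loss without the transgene *Ikzf2* was 0.03 and -0.12 with the replicate block, and without each library it ranged from -0.12 to 0.12, *Ikzf3* from -0.14 to 0.046, *Ikzf4* from -0.13 to 0.016 and *Ikzf5* from -0.0013 to 0.21. In GFPhi against GFPlo the ranges were -0.033 to 0.20 for *Ikzf1*, -0.44 to 0.038 for *Ikzf2*, -0.045 to 0.21 for *Ikzf3* and -0.28 to 0.68 for *Ikzf4*. *Ikzf4* ranged from -0.019 to 0.44 in Lmo2Tg;p21-/- against Lmo2Tg, and on the p21-/- background *Ikzf3* ranged from -0.48 to 0.70 and *Ikzf4* from -0.34 to 0.0015. The causes were not tested. The GFPhi and GFPlo libraries came from 3 cohorts, but whether equal replicate numbers mark a cohort is not given in the sources used here, and deviations of same-numbered libraries correlated at 0.07, -0.08 and 0.10. The replicate block changed no call of a member; of called list genes it kept 0 of 3 in the GFP experiment and 19 of 19 on the p21-/- background. The Lmo2Tg columns carry no usable number, so comparisons with them were not blocked. A lone library left in a group was assumed to vary like the other groups.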

Other observations

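Other transcription factors of T-cell progenitors were read from a list of 12. In Lmo2Tg against wild-type cells, where 36.6% of all tested genes were called, 1 was called higher and 2 lower: *Spi1*, the gene of the myeloid and early progenitor factor PU.1, at 2.05 (edgeR quasi-likelihood test, Benjamini-Hochberg adjusted p = 6.63e-05), *Bcl11a* at -1.23 and the commitment factor *Bcl11b* at -0.49. On the p21-/- background, where 30.7% of all tested genes were called, *Spi1* (2.08), *Myb* (0.50) and *Gfi1* (0.38) were called higher and *Bcl11a* (-1.82) and *Bcl11b* (-0.35) lower. *Spi1* stood at 2.00 to 3.56 CPM in the 5 libraries without the transgene and at 9.66 to 12.9 CPM in the 4 with it. Beside it, 6 myeloid and dendritic markers summed to 18.4 to 25.4 CPM and 20.04 to 34.96 CPM, with up to 2 at 0. That sum hid opposite changes. Of 5 tested in Lmo2Tg against wild-type cells, *Itgam* (1.69) and *Itgax* (1.78) were called higher and *Lyz2* (-1.40) lower. On the p21-/- background *Itgam* (1.43) was called higher and 0 lower. The part of these marker levels in the *Spi1* values was not tested. In the 6 GFP libraries, which all carry the transgene and were counted and scaled in a separate table, *Spi1* was at 0.0367 to 1.74 CPM. None of the 12 was called for p21 loss by edgeR, DESeq2 or limma-voom, where edgeR called 0.11% of all tested genes without and 6.94% with the transgene. At an unadjusted edgeR p under 0.05 there was 1 without and 2 with the transgene. With all 6 GFP libraries none of the 12 was called by edgeR, DESeq2 or limma-voom, where edgeR called 14.9% of all tested genes. Without GFPhi replicate 3 *Lef1* alone (1.44) was called, higher in GFPhi cells, where 41.3% of all tested genes were called. Over all libraries *Lef1* ranged from 84.6 to 461 CPM in GFPhi and from 149 to 208 CPM in GFPlo cells, so the GFPhi range extended on both sides of GFPlo. Of the 5 genes of the cereblon ubiquitin ligase, through which lenalidomide-type drugs degrade Ikaros and Aiolos, *Crbn* was called higher with the transgene, by 0.40 in Lmo2Tg and by 0.39 on the p21-/- background. *Rbx1* was called lower in GFPhi cells with all libraries (-0.48, edgeR adjusted p = 0.0134, and 0.0561 with the replicate block), where 14.9% of all tested genes were called. Without GFPhi replicate 3 it was also called lower (-0.41).

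The members' own patterns over the 9 genotype libraries are given as descriptions, since libraries of a group share their genotype; values over the GFP libraries include GFPhi replicate 3. Log2 CPM of *Ikzf1* and *Ikzf3* correlated at r = 0.92 and each ran against *Ikzf4* (r = -0.93 and -0.91); over the 6 GFP libraries the same 3 values were 0.40, -0.94 and -0.46. The genes most like *Ikzf2* were *Atp2b4*, *Trim30a* and *Zfp740* (r = 0.997 each), whose r with *Ikzf2* over the GFP libraries was -0.92, -0.27 and 0.18. Among those most like *Ikzf1* were *Lias* (0.94) and *Actr2* (0.94), with 0.57 and 0.60 in the GFP libraries, and those most like *Ikzf3* were *Ctage5* (0.95), *Ifi27* (0.94) and *Abcf1* (0.94), with 0.76, -0.13 and 0.04. For *Ikzf4* they were *Galnt3* (0.98), *1700048O20Rik* (0.97) and *Rapgef3* (0.96), with -0.78, -0.83 and 0.82, and for *Ikzf5* *Phlda1* (0.98), *Zfp263* (0.98) and *Ascc2* (0.97), with 0.63, -0.24 and -0.52.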
